A study of Rattus norvegicus with 6 samples.

Results

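The 40 genes described here carry glucose from its entry into the cell to pyruvate, exchange pyruvate with lactate, admit pyruvate to the mitochondrion and oxidise it in the tricarboxylic acid (TCA) cycle. They were chosen by gene symbol, and each was read by the probe set with the highest mean log2 signal over the 6 arrays. A probe set is the group of short oligonucleotides on the array that reads 1 transcript. Of the 40 genes, 37 had a probe set with that symbol alone, out of 14218 genes with such a probe set on the array. No probe set carried the symbol Dlat or Fh in the annotation used here, and the probe set for Pkm is also assigned to a pseudogene, so these 3 have no value. Gapdh was read by the array's control probe sets and stayed outside the adjusted test, which left 36 members, all of them brighter than the filter on dim probe sets. In all, 20 of the 37 are glycolytic (glucose uptake, glycolysis and lactate handling) and 16 are mitochondrial, while Pdk1, a mitochondrial kinase that inhibits pyruvate entry, was kept apart.

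The samples are confluent primary astrocyte cultures of rat spinal cord, measured on the Affymetrix Rat Genome 230 2.0 array. The SOD1-G93A group came from transgenic hSOD1G93A rats, which carry human superoxide dismutase 1 with the G93A substitution linked to familial amyotrophic lateral sclerosis, and the NonTG group from rats without the transgene. Each group has 3 arrays, lettered A, B and C, and both were kept in supplemented L15 medium for the day before RNA was taken. The labels give no age of the animals, no promoter of the transgene and no statement that the 3 arrays of a group are separate cultures, so the spread between them may be technical. Of 13 astrocyte markers on the array 12 were above the dim filter, with Fabp7, a glial fatty acid binding protein, at a mean log2 signal of 14.38 in SOD1-G93A and 14.47 in NonTG. Of these 12 markers 7 were higher and 5 lower in SOD1-G93A (median 0.074). After quantile normalization 9 were higher and 3 lower (median 0.16). Fibroblast genes were bright too, with Col1a2, a collagen chain, at 14.32 in SOD1-G93A and 14.45 in NonTG. Markers of other cells differed in both directions. Of 10 tested fibroblast and meningeal markers 7 were lower and 3 higher in SOD1-G93A. The summed signal of all 12 on the array was 54206 to 76369 in SOD1-G93A and 72260.0 to 76886 in NonTG. Dcn, a matrix proteoglycan, read 667, 283 and 349 in SOD1-G93A against 59.1, 92.3 and 63.9 in NonTG (2.52, SE 0.32, limma's adjusted p 0.4004), and Aldh1a2, which makes retinoic acid, differed by 1.15 (SE 0.23). Both had groups apart and were picked by name after their values were seen. Of 7 tested oligodendrocyte markers 6 were higher (median 0.25). The summed signal of all 14 on the array was 6169.6 to 8315 in SOD1-G93A and 5716 to 6310.0 in NonTG. The part of these cells in the values below was not tested. The mean signal after trimming was 500.2 on all 6 arrays. Signals of different probe sets are not amounts that can be set against each other, so levels are compared between arrays and not between genes. Where 2 genes or 2 groups of genes are set side by side, it is their differences between the arrays.

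Glycolysis splits glucose into pyruvate in the cytosol. Lactate dehydrogenase converts pyruvate to lactate, which monocarboxylate transporters carry across the plasma membrane, while pyruvate dehydrogenase turns pyruvate into the acetyl groups that the TCA cycle burns. Astrocytes are known for high glycolytic activity and for releasing lactate that neurons can use, and they hold pyruvate carboxylase, which refills the cycle for glutamine synthesis.

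No member differed between SOD1-G93A and NonTG in the test across all probe sets. The test was limma's moderated test on the log2 signal of 18625 probe sets, two-sided, with Benjamini-Hochberg adjustment, and all 36 tested members had an adjusted p of 0.9997. This matched the whole array, where 0 probe sets were called, or 0%, and 474, or 2.54%, had an unadjusted p under 0.05. Among the members that unadjusted count was 1, Slc2a1. This fit did not pair the arrays by letter. With the letter as a block, as described below, the count was 8 of the 36 (22.2%), against 5.85% of all probe sets tested. In that fit 0 passed after adjustment too. The groups did not overlap for 3 of the 36 members, or 8.33%, against 7.51% of all probe sets tested: 2 were higher, where the share over all was 4%, and 1 was lower, where it was 3.51%. The sign was the same under all 3 letters for 12 of the 36, against 25.8% of all probe sets tested. For 32 of the 36 (88.9%) a change of 1.5-fold either way fell outside the 95% interval, against 63.6% of all probe sets tested. For 34 this held at 2-fold, against 90.8% of all. These shares were not matched for brightness. The median SE of the tested probe sets was 0.26 up to a log2 signal of 8 and 0.076 above 13. Up to 8 there were 6464 tested probe sets, but 2 members. The 2 members whose intervals passed 2-fold were Hk2 and Slc16a3, which were also the dimmest.

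**Figure D1:**
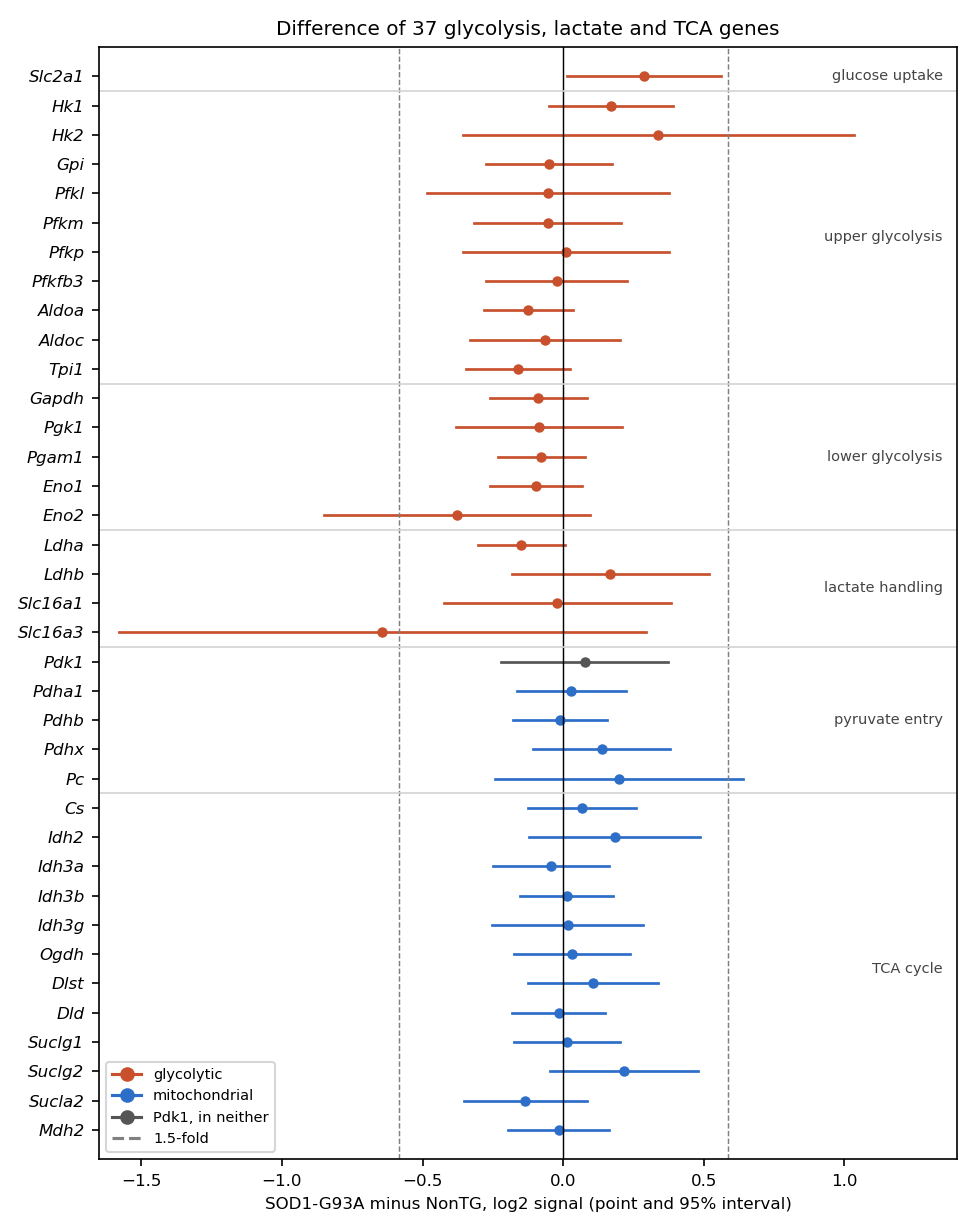
Difference of each of the 37 measured genes on the log2 scale, SOD1-G93A minus NonTG, as a point with its 95% interval from limma (3 arrays per group); red is glycolytic, blue mitochondrial, grey Pdk1, and dashed lines mark 1.5-fold. The fit did not pair the arrays by letter. All intervals but that of Slc2a1 include 0, and those of Hk2 and Slc16a3 are the widest.

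Glucose enters astrocytes through Slc2a1, the glucose transporter GLUT1. Its signals were 2187, 2771 and 2162.5 on SOD1-G93A arrays A, B and C, against 2067, 2039 and 1709 on the NonTG arrays. The groups did not overlap, SOD1-G93A being higher throughout, though SOD1-G93A C was close to NonTG A. The difference was 0.29 on the log2 scale (SE 0.12, 95% interval 0.014 to 0.56), or 1.22-fold, and it was positive under each letter (0.082, 0.44 and 0.34 for A, B and C). Without SOD1-G93A B, its highest array, it was 0.17. It did not pass the adjusted test, whose p was 0.9997 in limma.

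The hexokinases, which trap glucose as glucose 6-phosphate, had positive differences with overlapping groups. Hk1, the constitutive brain form, read 2886, 3439 and 3606 in SOD1-G93A against 3011, 3013 and 2775 in NonTG, a difference of 0.17 (SE 0.098) that was 0.10 without SOD1-G93A C and 0.26 without SOD1-G93A A. Hk2, the inducible form, read 99.8, 119 and 112 in SOD1-G93A against 112, 104 and 56.8 in NonTG, a difference of 0.34 (SE 0.31). A single low array, NonTG C, set the size of the Hk2 difference: it lay under 66.7, the level of the dim filter, and without it the difference was 0.030. Without NonTG A it was 0.52. Gpi, which isomerises glucose 6-phosphate to fructose 6-phosphate, differed by -0.051 (SE 0.099).

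Phosphofructokinase, the committed step of glycolysis, has 3 subunit genes, and none of them differed between the groups by as much as its standard error. Pfkl, the liver type, differed by -0.054 (SE 0.19), Pfkm, the muscle type, by -0.056 (SE 0.12) and Pfkp, the platelet type, by 0.0084 (SE 0.16). Pfkfb3, the enzyme that makes the phosphofructokinase activator fructose 2,6-bisphosphate, differed by -0.023 (SE 0.11). The enzymes that follow were lower by small amounts. Aldoa, the general aldolase, read 12108, 13323 and 12167 in SOD1-G93A against 12881, 14147 and 13929 in NonTG (-0.12, SE 0.071), and Aldoc, the aldolase of astrocytes, read 8129, 10318 and 10272 in SOD1-G93A against 8590.5, 10660.1 and 10771 in NonTG (-0.065, SE 0.12). Tpi1, which interconverts the triose phosphates, read 11488, 11569.7 and 12299.6 in SOD1-G93A against 11763, 13688 and 14151 in NonTG (-0.16, SE 0.082). After quantile normalization the differences were -0.073 for Aldoa, -0.018 for Aldoc and -0.10 for Tpi1. For these 3 genes each SOD1-G93A array was below the NonTG array of the same letter, while the groups overlapped.

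The 5 measured genes of the later, ATP-yielding steps of glycolysis all had a negative difference by the mean, and none passed the test. Gapdh, read at the 5' end of its transcript, was at 18195, 20465 and 20131 in SOD1-G93A against 19229, 22018 and 21276 in NonTG (-0.088, SE 0.076). Pgk1, the phosphoglycerate kinase, read 11085, 12316 and 14236 in SOD1-G93A against 10856, 14194 and 15058 in NonTG (-0.085, SE 0.13). Pgam1, the mutase, differed by -0.078 (SE 0.069). Array A was the lowest of its group for each of these genes, as it was for Eno1, the general enolase, at 17464, 19585 and 20049 in SOD1-G93A against 19400.4, 20851 and 20767 in NonTG (-0.098, SE 0.072). Of these 4, Gapdh, Pgam1 and Eno1 were lower in SOD1-G93A under all 3 letters, and all 4 had overlapping groups. After quantile normalization the difference was 0.011 for Gapdh, 0.013 for Eno1, -0.031 for Pgk1 and -0.0099 for Pgam1, so 2 of the 4 turned positive. Eno2, the enolase known from neurons, read 1398, 781 and 1173 in SOD1-G93A against 1233, 1312 and 1736 in NonTG. Its difference of -0.38 (SE 0.21) was opposite in sign under letter A (0.18) and under B and C (-0.75 and -0.57). It was -0.14 without SOD1-G93A B, -0.23 without NonTG C and -0.56 without SOD1-G93A A.

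The lactate genes differed in both directions. Ldha, the subunit of lactate dehydrogenase that predominates in glycolytic tissue, read 12391, 13561 and 12978 in SOD1-G93A against 13578, 14921 and 14684 in NonTG. The groups did not overlap, SOD1-G93A being lower throughout, though SOD1-G93A B and NonTG A were nearly equal. The difference was -0.15 (SE 0.069, 95% interval -0.30 to 0.0049), or 0.902-fold, with -0.13, -0.14 and -0.18 under A, B and C. After quantile normalization it was -0.096, and all tested probe sets with a mean log2 signal above 13, as bright as Ldha, had a median of -0.068 before it. Ldhb, the subunit of oxidative tissue, read 4777, 7316 and 5997 in SOD1-G93A against 4472, 5843 and 5667 in NonTG. It was higher under each letter, by 0.095, 0.32 and 0.082, with overlapping groups and a difference of 0.17 (SE 0.16). Single arrays set its size: leaving out SOD1-G93A B gave 0.017, leaving out SOD1-G93A A gave 0.32 and leaving out NonTG A gave 0.046. Measured within each array, Ldhb relative to Ldha was thus higher in SOD1-G93A by 0.23, 0.46 and 0.26 under A, B and C, with a mean of 0.32 and overlapping groups. Neither gene passed the adjusted test (limma's adjusted p was 0.9997 for both), and the pair was not tested.

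Slc16a1, the widely expressed monocarboxylate transporter MCT1, read 3476, 4816 and 4540.1 in SOD1-G93A against 3359, 5513 and 4285 in NonTG (-0.021, SE 0.18). Slc16a3, the lactate exporter MCT4, read 204, 62.7 and 118 in SOD1-G93A against 226, 122 and 209 in NonTG. Its difference was the largest of the members, -0.64 (SE 0.42, 95% interval -1.58 to 0.29), and it was negative under each letter (-0.14, -0.96 and -0.83). SOD1-G93A B, its lowest array, was under the level of the dim filter, and without that array the difference was -0.21. Without SOD1-G93A A it was -1.06. SOD1-G93A B was also the lowest array for 8 of the 9 tested pericyte and smooth muscle markers, such as Myl9, a myosin light chain (6884, 2090.3 and 3835 in SOD1-G93A against 5157, 3561 and 5596 in NonTG). The summed signal of all 12 markers of that list ranged from 17867 to 29570 in SOD1-G93A and from 23997 to 29938 in NonTG, and none was at 0. All 9 had a negative difference, with a median of -0.24. Their part in the values of Slc16a3 and Eno2 was not tested. In whole cultures fewer cells of a type and less RNA per cell cannot be told apart.

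**Figure D2:**
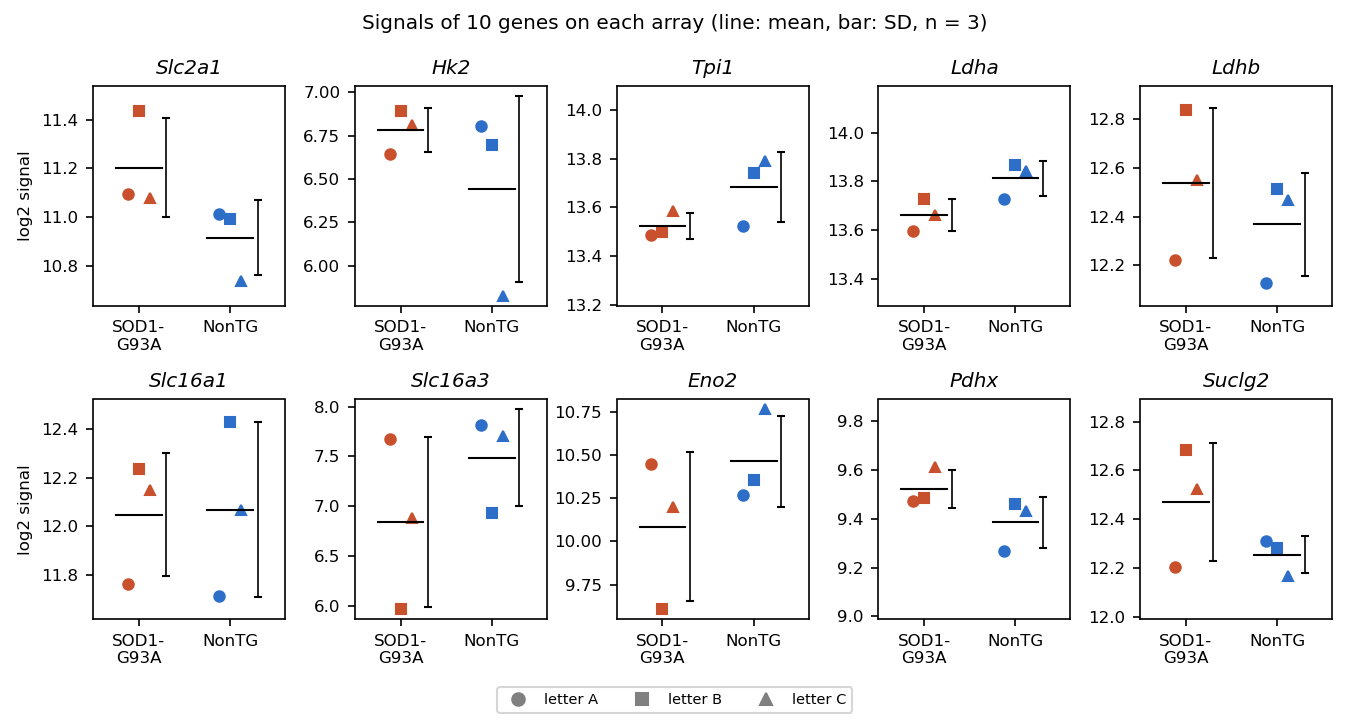
Log2 signal of 10 members on each array, SOD1-G93A left and NonTG right, with markers for the letters, a line for the mean and a bar for the SD (3 arrays per group); each panel has its own axis, spanning at least 0.9. Groups do not overlap for Slc2a1, Ldha and Pdhx, while for Slc16a1 and Ldhb array A is the lowest in both groups.

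The promoters of the 3 members whose groups did not overlap are printed here because Slc2a1 and Ldha are textbook targets of hypoxia-inducible factor (HIF), while Pdhx belongs to the mitochondrial side. Each sequence is the 250 bases before the start used in the RefSeq promoter table on GRCr8, on the gene's strand. For Slc2a1 and Ldha this is the start of the gene record. The gene record of Pdhx begins farther upstream, within the window, so both of its marked cores lie inside the gene. Capitals mark the HIF core, ACGTG or GCGTG on either strand, and overlapping matches are drawn as one run. The windows are chr5:138002272-138002521 (plus strand) for Slc2a1, chr1:106507842-106508091 (plus strand) for Ldha and chr3:109886735-109886984 (minus strand) for Pdhx.
Slc2a1: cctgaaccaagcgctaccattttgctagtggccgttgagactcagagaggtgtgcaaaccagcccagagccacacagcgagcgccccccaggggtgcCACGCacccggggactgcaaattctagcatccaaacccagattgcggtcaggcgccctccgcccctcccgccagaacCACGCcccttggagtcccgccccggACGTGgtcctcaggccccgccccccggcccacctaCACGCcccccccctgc
Ldha: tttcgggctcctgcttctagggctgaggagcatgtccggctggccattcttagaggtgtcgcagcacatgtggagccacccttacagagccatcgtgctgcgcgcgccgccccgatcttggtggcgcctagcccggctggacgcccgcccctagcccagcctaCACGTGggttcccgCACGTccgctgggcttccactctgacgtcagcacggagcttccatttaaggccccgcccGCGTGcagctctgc
Pdhx: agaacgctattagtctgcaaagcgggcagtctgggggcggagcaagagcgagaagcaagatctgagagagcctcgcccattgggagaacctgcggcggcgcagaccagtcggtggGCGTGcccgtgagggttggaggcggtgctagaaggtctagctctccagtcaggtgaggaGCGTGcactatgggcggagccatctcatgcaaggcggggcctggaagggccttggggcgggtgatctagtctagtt
The core occurred at 4 places in Slc2a1, 3 in Ldha and 2 in Pdhx. One of those in Ldha is the palindrome CACGTG, the E-box core, which matches on both strands. A window with at least 1 core was found for 22 of the 37 members with a promoter in the table, 13 of 20 glycolytic and 8 of 16 mitochondrial, against 36.7% of all 33469 promoters of that length. These 37 are not the 37 measured genes: they include Dlat, Fh and Pkm, and they lack Pgk1, Pc and Idh3a. The members' windows were also richer in G and C, with a median of 61.2% against 51.2% over all promoters. A match is a run of letters and does not show binding.

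Pyruvate enters the mitochondrial matrix to be decarboxylated by the pyruvate dehydrogenase complex. Pdha1 and Pdhb, the 2 subunits of its first enzyme, differed by 0.029 (SE 0.086) and -0.012 (SE 0.074). Pdhx, the protein that anchors dihydrolipoamide dehydrogenase in the complex, read 711, 716 and 783 in SOD1-G93A against 616, 705 and 691 in NonTG. The 3 SOD1-G93A arrays lay above the 3 NonTG arrays, narrowly so between SOD1-G93A A and NonTG B, with a difference of 0.14 (SE 0.11, 95% interval -0.11 to 0.38) that was 0.077 without NonTG A. Pdk1, the kinase that switches the complex off and a HIF target, read 619.8, 750.2 and 817 in SOD1-G93A against 705, 736 and 624 in NonTG. Its difference of 0.077 (SE 0.13) ran from -0.18 under A to 0.39 under C. Pc, pyruvate carboxylase, read 274, 333 and 250.1 in SOD1-G93A against 257, 298 and 197 in NonTG, higher under each letter with overlapping groups (0.20, SE 0.20). That difference was 0.083 without SOD1-G93A B, 0.035 without NonTG C and 0.33 without NonTG B.

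The 12 TCA cycle members had a median difference of 0.016, 8 of them positive and 4 negative, and none had groups apart on the probe set used. Suclg2, the GTP-forming subunit of succinyl-CoA ligase, had the largest of these differences. It read 4723, 6582 and 5884 in SOD1-G93A against 5086, 4984 and 4599.8 in NonTG (0.22, SE 0.12), with B and C of SOD1-G93A above all NonTG arrays and A below NonTG A and B. Sucla2, the ATP-forming counterpart, differed by -0.14 (SE 0.097), and Suclg1, the subunit that both share, by 0.015 (SE 0.083). Idh2, the NADP-dependent isocitrate dehydrogenase of mitochondria, read 4659, 6159 and 4870.0 in SOD1-G93A against 5184, 4798 and 3838 in NonTG (0.18, SE 0.14). As for Suclg2, its difference was negative under A (-0.15) and positive under B and C (0.36 and 0.34). Without SOD1-G93A B the difference was 0.060 for Idh2 and 0.11 for Suclg2. Idh2 was at 0.057 without NonTG C, and Suclg2 at 0.35 without SOD1-G93A A.

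The remaining members of the cycle stayed within 0.11 of 0. Cs, citrate synthase, differed by 0.067 (SE 0.085). Idh3a, Idh3b and Idh3g, the subunits of the NAD-dependent isocitrate dehydrogenase, differed by -0.043, 0.012 and 0.016. Ogdh and Dlst, the first components of 2-oxoglutarate dehydrogenase, differed by 0.031 (SE 0.091) and 0.11 (SE 0.10), and Dld, the dehydrogenase that this complex shares with pyruvate dehydrogenase, by -0.016 (SE 0.074). Dlst read 1863, 1881 and 1889 in SOD1-G93A against 2000.4, 1695 and 1565 in NonTG. The SOD1-G93A arrays thus lay inside the range of the NonTG arrays. Mdh2, mitochondrial malate dehydrogenase, differed by -0.015 (SE 0.080).

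Set side by side, the glycolytic members leaned lower and the mitochondrial members leaned higher in SOD1-G93A. The mean differences of -0.055 and 0.049 were below the pooled SD between arrays, 0.061 and 0.078, which ignores the letters. Of the 20 glycolytic members 15 had a negative difference, with a median of -0.060, and of the 16 mitochondrial members 11 had a positive one, with a median of 0.023. Over all probe sets tested the median was 0.0070, with 52% positive. The mean glycolytic level, as a log2 deviation from each gene's mean over the arrays, was -0.028 ± 0.054 in SOD1-G93A and 0.028 ± 0.068 in NonTG (SD, n = 3). The mean mitochondrial level was 0.025 ± 0.088 in SOD1-G93A and -0.025 ± 0.067 in NonTG (SD, n = 3). Under letters A, B and C the glycolytic level differed by -0.034, -0.092 and -0.039, negative each time. These means include the dimmest members, Slc16a3 (-0.14, -0.96 and -0.83) and Hk2 (-0.16, 0.20 and 0.98), whose values are large beside them. The medians of the 20 genes were -0.048, -0.088 and -0.074. The mitochondrial level differed by -0.040, 0.10 and 0.085. The glycolytic minus mitochondrial level differed by -0.10 between the groups, with a pooled SD of 0.10 between arrays, and by 0.0054, -0.20 and -0.12 under A, B and C. After quantile normalization 12 glycolytic members were lower (median -0.014) and 14 mitochondrial members higher (median 0.034). Without SOD1-G93A A 9 glycolytic members were lower, with a median of 0.0026, and without SOD1-G93A B 6 mitochondrial members were higher, with a median of -0.016. No test was made of these levels, since the members were chosen with earlier results known.

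**Figure D3:**
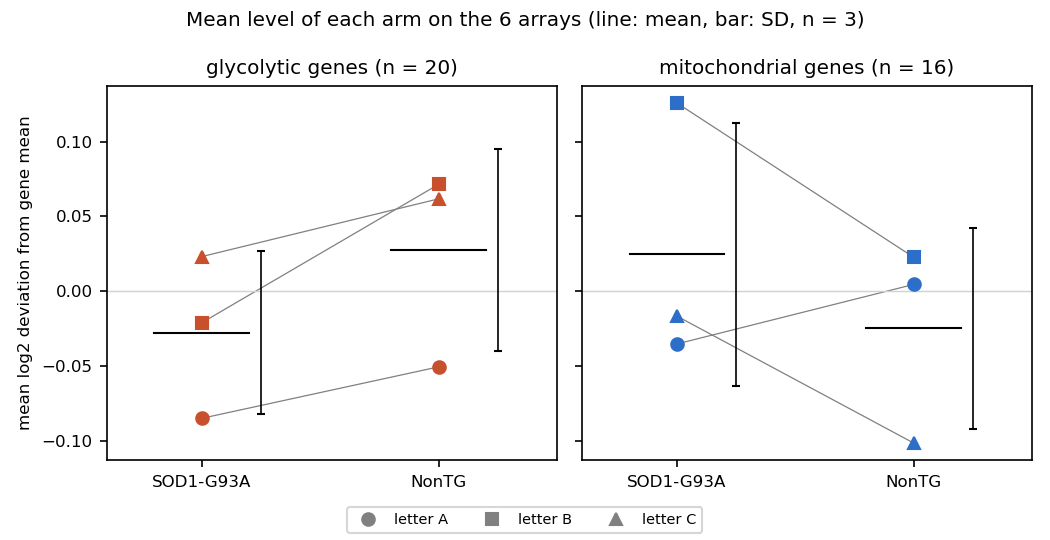
Mean log2 deviation from the gene mean over the 6 arrays for the 20 glycolytic genes (left) and the 16 mitochondrial genes (right), per array, with SOD1-G93A left of NonTG, a line for the mean, a bar for the SD (3 arrays per group) and grey lines joining the same letter. The glycolytic mean is lower in SOD1-G93A under each letter, the mitochondrial mean under A alone, and in both panels the groups overlap.

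Before quantile normalization, the low offset of the glycolytic enzymes was shared by other probe sets of their brightness. The 7 tested members with a mean log2 signal above 13, Aldoa, Aldoc, Tpi1, Pgk1, Pgam1, Eno1 and Ldha, were all lower in SOD1-G93A, with a median of -0.098, and 6 of them were lower under every letter. Of all 376 tested probe sets of that brightness 83.0% were lower, with a median of -0.068 and quartiles of -0.12 and -0.021, and 44.9% were lower under every letter. Over all probe sets tested, 12.2% were lower under every letter. Quantile normalization gives every array the same distribution of signals. After it the median of the 376 was -0.0028, with 51.6% lower and 13.6% lower under every letter. The 7 members then had a median of -0.031, with 6 of 7 lower and 2 lower under every letter. The 8 members with a mean log2 signal between 12 and 13, among them Suclg2, Idh2, Ldhb and Cs, had a median of 0.048, against -0.024 for the 692 probe sets in that range.

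**Figure D4:**
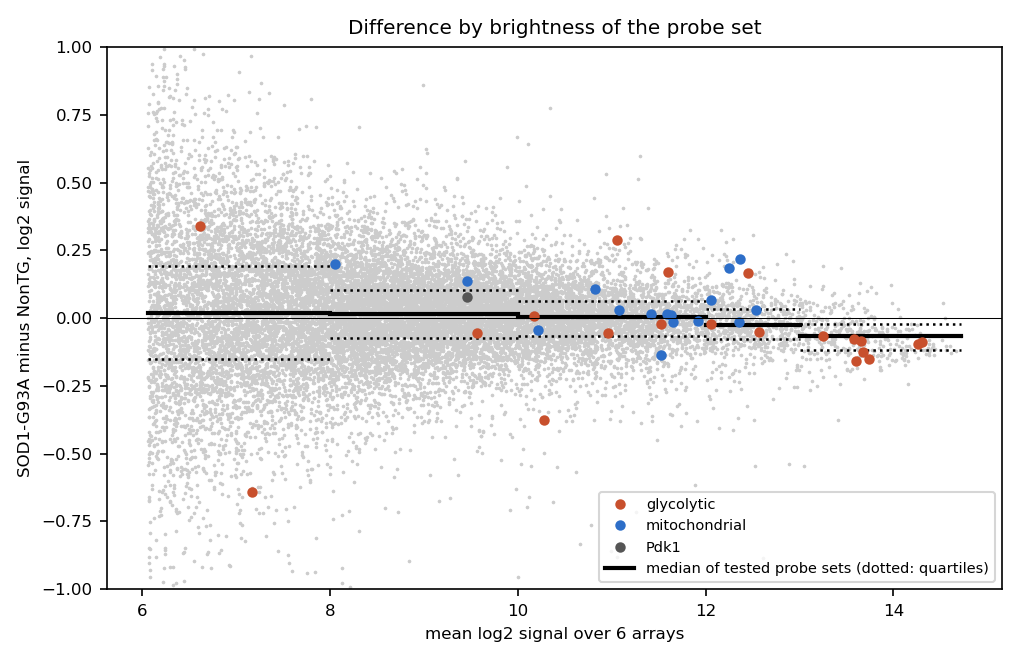
Difference between SOD1-G93A and NonTG (log2) against the mean log2 signal over the 6 arrays, for the tested probe sets (light grey), the 20 glycolytic (red) and 16 mitochondrial (blue) genes and Pdk1 (dark grey), with the median of tested probe sets in 5 ranges of brightness as a black line and the quartiles dotted; 58 probe sets differ by 1 or more (0.311%) and are not shown. The median falls to -0.068 above a log2 signal of 13, where the glycolytic enzymes cluster.

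Same-letter arrays of the 2 groups deviated together, with correlations over all tested probe sets of 0.30, 0.25 and 0.20 for A, B and C. A further fit therefore treated them as pairs by letter, which the titles do not state. The differences, standard errors and intervals given so far come from the fit without this pairing, and the fit with it is described after the letters. Array A was the lowest of its group in both groups for 12 of the 19 tested glycolytic members, against 2 of the 16 mitochondrial members and 17.4% of all probe sets tested. After quantile normalization these were 7 of 19, 3 of 16 and 16.4%, and of probe sets above a log2 signal of 13 the share was 44.4% before it and 16.5% after it. Array B was the highest in both groups for 12 of the 36, against 16.2% of all probe sets tested. In limma's F test of the letters 9 of the 36 members had an unadjusted p under 0.05, against 15.6% of all probe sets tested. After adjustment 1 member passed, Slc16a1 (limma's adjusted p was 0.0381), where 195 probe sets, or 1.05%, passed in all. Its mean log2 signal over both groups was 11.74 on the A arrays, 12.33 on the B arrays and 12.11 on the C arrays. Next came Ldhb (12.17, 12.67 and 12.51), Aldoc (13.03, 13.36 and 13.36) and Pgk1 (13.42, 13.69 and 13.84), with adjusted p of 0.0512 to 0.0568 in limma. Without the intensity trend in limma 0 probe sets passed (0%) and Slc16a1 had an adjusted p of 0.366. In limma's F test with no dim filter the adjusted p of Slc16a1 was 0.065, and after quantile normalization it was 0.0476.

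With the letter as a replicate block in limma, the genotype difference had an unadjusted p under 0.05 for 8 of the 36 members (22.2%), against 5.85% of all probe sets tested, and again 0 passed after adjustment. The 8 were Slc2a1, Ldhb and Suclg2 with positive differences and Aldoa, Tpi1, Eno2, Ldha and Slc16a3 with negative ones. Of the probe sets above a log2 signal of 13, which include Aldoa, Tpi1 and Ldha, 23.4% had such a p. The share was smaller where the other members of the 8 lie. It was 8.67% between 12 and 13 (Ldhb and Suclg2), 6.73% between 10 and 12 (Slc2a1 and Eno2) and 4.61% up to 8 (Slc16a3). The smallest adjusted p of a member was 0.834 in the blocked limma fit.

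Other probe sets of the same genes gave a check where they exist. Of 19 further probe sets 12 were above the dim filter, and 9 of these had the sign of the probe set used. For Hk1 the 3 control probe sets along the transcript differed by 0.078 to 0.19 (SE 0.12 to 0.23), against 0.17 for the probe set used, and for Gapdh the other 2 by -0.068 and -0.076. The 3 of opposite sign were one each of Pfkm (0.078, SE 0.11), Pgk1 (0.087, SE 0.12) and Cs (-0.023, SE 0.092), each within 1 standard error of 0. Another Cs probe set differed by 0.12 (SE 0.080), with SOD1-G93A higher and no overlap between the groups, as for 4% of all probe sets tested. A second Pdk1 probe set differed by 0.066 (SE 0.14) and a second one of Pfkfb3 by -0.066 (SE 0.12).

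Neighbouring pathways held no call either, 0 in each of 6 lists. Of the 9 tested glycolysis and lactate genes outside the members 6 had a negative difference (median -0.0047), and Slc2a3, the glucose transporter known from neurons, differed by -0.32 (SE 0.22) and Eno3, the muscle enolase, by -0.20 (SE 0.13). Of 17 other genes of pyruvate entry and the TCA cycle 12 were positive (median 0.047), with Pdp2, a phosphatase that switches pyruvate dehydrogenase on, at -0.29 (SE 0.18) and Lias, which makes its lipoyl group, at 0.20 (SE 0.13). Of 12 genes of the shuttles that carry reducing equivalents into mitochondria 9 were positive (median 0.047), among them Gpd1, the cytosolic glycerol phosphate dehydrogenase (0.32, SE 0.18), and Me2, a mitochondrial malic enzyme (0.20, SE 0.14). The pentose phosphate pathway had 5 of 8 positive (median 0.040), with Rpe, an epimerase, at -0.23 (SE 0.19) and Taldo1, transaldolase, at 0.068 (SE 0.095). Glycogen genes had 6 of 12 positive (median 0.013), with Pgm2 at 0.23 (SE 0.15) and Ugp2, which makes UDP-glucose, at -0.13 (SE 0.11).

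Other targets and regulators of HIF were lower in SOD1-G93A for 17 of 21 tested genes, with a median of -0.069 (16 of 21 and -0.082 after quantile normalization), against 48% of all probe sets tested. The list pools targets with regulators such as Vhl, Egln1 and Egln2, so the count gives no direction for HIF itself. These regulators differed by -0.0015 (SE 0.098), -0.097 (SE 0.13) and -0.016 (SE 0.13), each by less than its standard error. Of the members called HIF targets above, which are outside the list, Slc2a1 (0.29) and Pdk1 (0.077) were positive and Ldha (-0.15) negative. P4ha1, a collagen prolyl hydroxylase, read 4899.5, 4404 and 5396 in SOD1-G93A against 5454, 5054 and 6357 in NonTG, lower under each letter (-0.20, SE 0.11). Hif1a itself differed by -0.065 (SE 0.097), Vegfa, the vascular growth factor, by -0.24 (SE 0.19) and Bnip3, a mitophagy receptor, by -0.16 (SE 0.15). Egln3, an oxygen sensor that marks HIF for breakdown and is induced by it, differed by 0.19 (SE 0.12). Ddit4 (0.13, SE 0.13), Mxi1 (0.11, SE 0.098) and Tfrc (0.054, SE 0.070) were positive too. Apart from P4ha1 and Egln3, the genes of this list given here were picked by name after their values were seen.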

How the data were processed

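Total RNA of 6 arrays was measured on the Affymetrix Rat Genome 230 2.0 array. The deposited values are linear intensity per probe set. The submitters' processing notes name MAS5 and GCOS 1.4 as tools of the authors. The design text names GC-RMA in ArrayAssist 4.0 and log values, but these values are not on a log scale. Their mean after trimming 2% at each end was 500.2 on each array.

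From the 31099 probe sets, 57 controls were left out. The log2 was taken without a pseudocount, and 18625 probe sets whose mean exceeded the 40th percentile, equal to a signal of 66.7, were kept. limma 3.58.1 in R 4.3.3 (lmFit, eBayes with trend) compared SOD1-G93A with NonTG, with Benjamini-Hochberg adjustment and a threshold of 0.05, and was tested on simulated data. Gapdh came from a fit with the rat Gapdh and hexokinase controls added, without an adjusted p. Pairing by letter was inferred from the letters in the titles and from the correlations given above (-0.28 to 0.025 between different letters). Symbols come from GEO's platform annotation.

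All members were named. In each related list the 2 genes with the smallest p were named, and from a marker list up to 2 of its brightest. Members and lists were chosen with earlier results of these data known. Precision is limited by the number of arrays. Alternatives were other filters, a pseudocount of 16, quantile normalization, no trend, array weights, the block, leaving out each array, the mean over a gene's probe sets and other makeups of the arms.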

Additional observations from a re-analysis of the deposited data

How the results depend on the processing

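The count of probe sets called between SOD1-G93A and NonTG was 0 under every alternative, replicate block included, and members had adjusted p of 0.762 or more in limma. The count for the letters was 110 with no filter and 0 without the intensity trend. Leaving out 1 array at a time, 9 to 15 glycolytic members were lower and 6 to 13 mitochondrial members higher, and the glycolytic minus mitochondrial difference ran from -0.16 to -0.049. The replicate block changed no call. Of 37 member differences 18 kept their sign under all alternatives and 19 did not, 50 of 516 values in all. Signs turned with quantile normalization for Pfkp (-0.0051), Pfkfb3 (8.74e-06), Gapdh (0.011), Eno1 (0.013), Slc16a1 (0.0023), Pdhb (0.0038), Dld (0.000105) and Mdh2 (0.0049). They turned with array weights for Pfkp (-0.088), Pfkfb3 (0.032), Idh3g (-0.062) and Suclg1 (-0.017), and with the mean over probe sets for Pfkm (0.011) and Pgk1 (0.00075). Over the fits that leave out 1 array, where a lone pair is assumed to vary like the other group, ranges that crossed 0 were -0.13 to 0.043 for Gpi, -0.25 to 0.10 for Pfkl, -0.13 to 0.070 for Pfkm, -0.12 to 0.18 for Pfkp, -0.13 to 0.049 for Pfkfb3, -0.17 to 0.049 for Aldoc, -0.23 to 0.0076 for Pgk1, -0.20 to 0.16 for Slc16a1, -0.0099 to 0.19 for Pdk1, -0.013 to 0.11 for Pdha1, -0.047 to 0.029 for Pdhb, -0.021 to 0.045 for Idh3b, -0.11 to 0.10 for Idh3g, -0.023 to 0.085 for Ogdh, -0.052 to 0.018 for Dld, -0.028 to 0.063 for Suclg1 and -0.079 to 0.025 for Mdh2. The cause of these changes was not tested. The strict filter at the 60th percentile left out Hk2 and Slc16a3. Dim signals limit both.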
